A study of Mus musculus with 8 samples.

Results

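The RNA of 10 macrophage genes was followed in DBA-positive cells of the mouse kidney: C1qa, C1qb and C1qc, which encode the chains of complement C1q, and the lineage genes Lyz2, Csf1r, Adgre1, Cd68, Mrc1, Cx3cr1 and Tyrobp. They were taken by symbol from the table of 55304 genes, and all 10 were found. DBA, the lectin Dolichos biflorus agglutinin, binds collecting duct cells and is used to enrich them, so these genes are read in cells that were not sorted as macrophages. Whole kidney is also named in the labels' extraction protocol. The 4 groups held 2 libraries each: mice modelling autosomal dominant polycystic kidney disease (ADPKD) given 666-15, ADPKD mice given vehicle, wild-type (WT) mice given 666-15, and WT mice given vehicle. The compound 666-15 inhibits the transcription factor CREB and was given at 5 mg/kg on 5 days in a row, then paused for 2 days, over 3 weeks from postnatal day 11. The vehicle was DMSO. The labels name neither the gene altered in the ADPKD mice nor the driver of any allele. They leave unsaid whether libraries of 1 group are different animals, and the p-values then measure only the spread between these libraries, which may be technical.

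C1q recognises antibody complexes, apoptotic cells and pathogen surfaces and starts the classical complement pathway. In most tissues macrophages are its main source. Resident macrophages of the kidney depend on signals through the CSF1 receptor, and in mice many carry ADGRE1 and CX3CR1. Macrophages gather around the cysts of polycystic kidneys and are known to promote cyst growth in mouse models.

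Total counts per library ranged from 15108793 to 19702638, and levels are given as CPM, which are counts scaled to a common library size. Replicate 2 of the WT cells given 666-15 stood apart by sex: it held 17688 counts of Xist and 0 of the Y-linked genes Ddx3y, Eif2s3y, Kdm5d and Uty, while the other 7 libraries held at most 8 of Xist. The libraries of this group therefore came from different animals. For the macrophage genes named above, differences that passed the test and rest on this group are also followed without that library. The same is done for the wider list of macrophage markers in WT cells. Results of this group for other genes and lists are given only with that library included. Epithelial genes of the tubule (Epcam, Cdh1, Cdh16, Krt8, Krt18 and Krt19) were abundant and summed to 14880 and 16260 CPM in ADPKD cells given 666-15, 14010 and 13540 CPM in ADPKD cells given vehicle, 11610 and 10780 CPM in WT cells given 666-15, and 5075 and 5174 CPM in WT cells given vehicle. Proximal tubule markers, which a DBA selection should leave out, summed to 8518 to 8697 CPM in WT cells given vehicle.

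The C1q genes lie side by side on the minus strand of chromosome 4 (GRCm38), with C1qb at 136880129 to 136886187, C1qc at 136889804 to 136893065 and C1qa at 136895917 to 136898803. RefSeq (GRCm38.p6) gave a promoter for 6 of the 10 genes: C1qb, C1qc, Lyz2, Cd68, Mrc1 and Cx3cr1. The 250 bases before each start were searched on both strands for GAGGAA, the core of many sites of the macrophage lineage factor PU.1, and for TGACG, the short site that CREB binds. Of the 6 promoters, 4 held GAGGAA (C1qb, C1qc, Cd68 and Mrc1) and 2 held TGACG (C1qb and Cd68), against 23.3% and 17.8% of all 32851 promoters of the same length. No match overlapped another. The promoters with a match are printed 5′ to 3′ on the strand of the gene, to show that C1qb and Cd68 hold both motifs and Mrc1 3 matches of GAGGAA alone. Capitals mark the matches, and a match on the other strand reads TTCCTC or CGTCA. Where the GENCODE gene starts upstream of the RefSeq start only the bases before it are shown. A match describes letters in this window and says nothing of binding. C1qb (chr4:136886201-136886450, minus strand), C1qc (chr4:136893066-136893164, minus strand), Cd68 (chr11:69666171-69666420, minus strand) and Mrc1 (chr2:14229164-14229391, plus strand) read:
C1qb: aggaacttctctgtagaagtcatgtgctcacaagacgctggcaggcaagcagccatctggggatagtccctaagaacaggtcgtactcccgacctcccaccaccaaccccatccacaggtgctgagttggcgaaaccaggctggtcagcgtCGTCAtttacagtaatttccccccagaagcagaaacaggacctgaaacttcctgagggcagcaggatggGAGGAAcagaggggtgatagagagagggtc
C1qc: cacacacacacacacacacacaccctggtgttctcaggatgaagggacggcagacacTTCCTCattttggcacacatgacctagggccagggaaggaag
Cd68: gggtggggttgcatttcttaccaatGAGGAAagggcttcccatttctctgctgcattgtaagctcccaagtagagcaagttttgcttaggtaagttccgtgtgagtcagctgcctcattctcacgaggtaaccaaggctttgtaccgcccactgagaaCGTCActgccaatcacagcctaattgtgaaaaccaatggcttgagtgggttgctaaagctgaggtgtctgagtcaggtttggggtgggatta
Mrc1: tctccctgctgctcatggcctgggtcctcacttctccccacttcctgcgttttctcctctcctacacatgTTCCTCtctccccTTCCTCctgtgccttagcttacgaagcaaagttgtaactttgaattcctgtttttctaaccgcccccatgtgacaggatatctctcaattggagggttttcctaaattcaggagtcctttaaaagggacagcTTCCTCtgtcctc

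The C1q chains had their highest levels in ADPKD cells given vehicle and their lowest in WT cells given vehicle. C1qa was at 11.7 and 15.0 CPM in ADPKD cells given 666-15, 21.5 and 24.4 CPM in ADPKD cells given vehicle, 1.66 and 4.93 CPM in WT cells given 666-15, and 0.498 and 0.650 CPM in WT cells given vehicle. C1qb was at 11.7 and 20.3 CPM in ADPKD cells given 666-15, 20.8 and 27.1 CPM in ADPKD cells given vehicle, 4.44 and 7.65 CPM in WT cells given 666-15, and 0.996 and 0.236 CPM in WT cells given vehicle. C1qc was at 10.8 and 17.7 CPM in ADPKD cells given 666-15, 14.9 and 22.0 CPM in ADPKD cells given vehicle, 1.92 and 2.85 CPM in WT cells given 666-15, and 0.199 and 0.827 CPM in WT cells given vehicle. Every ADPKD library was above every WT library for each chain, and both WT libraries given 666-15 were above both given vehicle. In bulk RNA the number of macrophages, the RNA per macrophage and RNA of other cells in the fraction cannot be told apart. Between the ADPKD groups the libraries of C1qa and C1qb did not overlap, while those of C1qc did. Summed over the chains, WT cells given vehicle held 34 and 29 counts, that is 1.69 CPM (95% Poisson interval 1.17 to 2.37, counting error only) and 1.71 CPM (1.15 to 2.46), against 57.2 CPM (53.8 to 60.7) and 73.5 CPM (69.6 to 77.5) in ADPKD cells given vehicle.

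**Figure D1:**
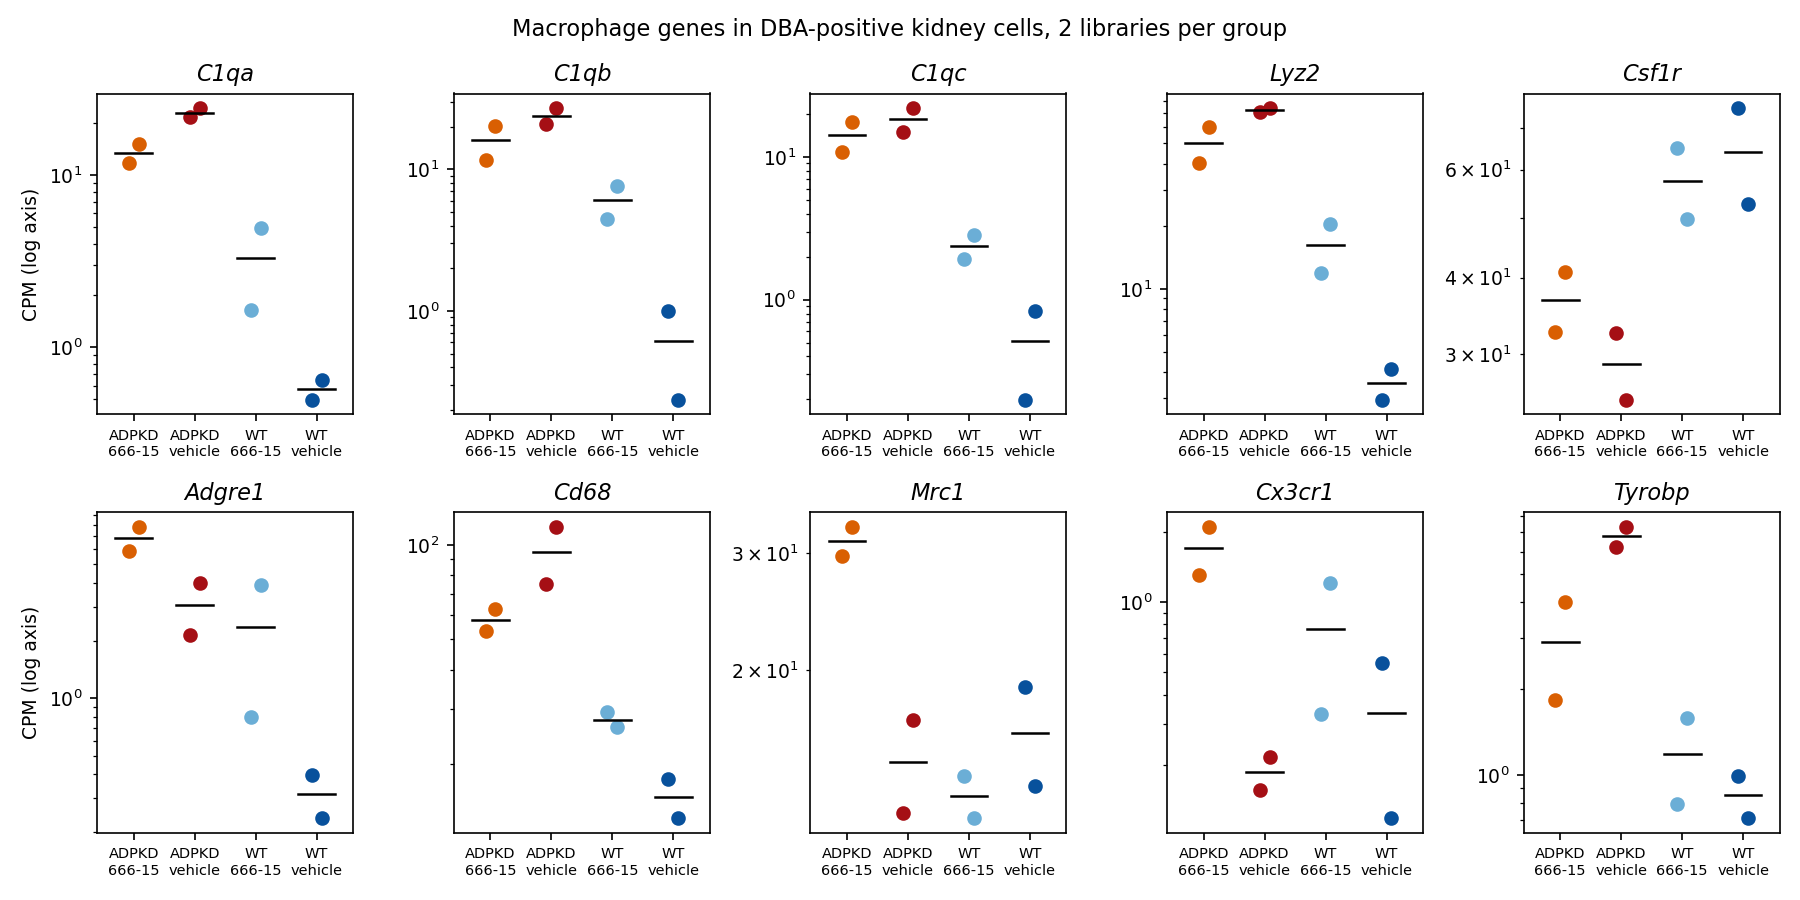
Levels of the 10 genes as CPM on a log axis, with 1 point per library (2 per group), a bar at the group mean, and a separate scale in each panel. C1qa, C1qb, C1qc, Lyz2, Cd68 and Tyrobp were highest in ADPKD cells given vehicle, Adgre1, Mrc1 and Cx3cr1 in ADPKD cells given 666-15, and Csf1r in WT cells, where the lowest library was at 49.8 CPM.

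Among the other genes of phagocytes, Lyz2 (lysozyme of macrophages and neutrophils) had 40.4 and 60.1 CPM in ADPKD cells given 666-15, 70.7 and 73.9 CPM in ADPKD cells given vehicle, 11.99 and 20.4 CPM in WT cells given 666-15, and 2.94 and 4.14 CPM in WT cells given vehicle. Its near copy Lyz1 had at most 7 counts in a library. Cd68, which encodes a lysosomal glycoprotein abundant in macrophages, had 53.2 and 62.5 CPM in ADPKD cells given 666-15, 75.0 and 114.5 CPM in ADPKD cells given vehicle, 29.3 and 26.3 CPM in WT cells given 666-15, and 17.9 and 13.5 CPM in WT cells given vehicle. Tyrobp, the adaptor DAP12 that carries signals of TREM receptors, had 1.82 and 4.004 CPM in ADPKD cells given 666-15, 6.23 and 7.33 CPM in ADPKD cells given vehicle, 0.795 and 1.58 CPM in WT cells given 666-15, and 0.996 and 0.709 CPM in WT cells given vehicle. For Lyz2 and Cd68 the order of the groups was that of C1qa and no groups overlapped. For Tyrobp the WT groups overlapped.

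The remaining genes did not follow that order. Adgre1, the adhesion receptor used as a general macrophage marker in mice, had 5.86 and 7.87 CPM in ADPKD cells given 666-15, 2.13 and 4.02 CPM in ADPKD cells given vehicle, 0.795 and 3.92 CPM in WT cells given 666-15, and 0.398 and 0.236 CPM in WT cells given vehicle. Mrc1, the mannose receptor CD206 of resident and repair-type macrophages, had 29.7 and 32.9 CPM in ADPKD cells given 666-15, against 12.2 and 16.8 CPM in ADPKD cells given vehicle, 13.9 and 11.96 CPM in WT cells given 666-15, and 18.8 and 13.4 CPM in WT cells given vehicle. The ADPKD libraries given 666-15 were the highest for both, and the other 3 groups overlapped for Mrc1. Cx3cr1, the receptor of fractalkine, had only 20 and 31 counts in ADPKD cells given 666-15, 3 and 4 in ADPKD cells given vehicle, 5 and 19 in WT cells given 666-15, and 11 and 2 in WT cells given vehicle, so its levels stayed at or below 2.104 CPM. Csf1r, the receptor of CSF1 and IL34 on which most tissue macrophages depend, had 32.6 and 40.9 CPM in ADPKD cells given 666-15, 32.5 and 25.3 CPM in ADPKD cells given vehicle, 65.1 and 49.8 CPM in WT cells given 666-15, and 75.6 and 52.7 CPM in WT cells given vehicle. It was higher in every WT than in every ADPKD library, which held for none of the other 9 genes. Csf1r shares 873 exon bases with Hmgxb3 on the opposite strand. The sources used here do not give the strand setting of the counting, so reads of the 2 genes there cannot be told apart. Hmgxb3 itself was at 61.5 and 64.1 CPM in ADPKD cells given vehicle and 40.1 and 38.7 CPM in WT cells given vehicle, a difference opposite to that of Csf1r.

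All 10 genes passed the filter on low counts, which asks for about 0.63 CPM in at least 2 libraries. In WT cells given vehicle Adgre1 and Cx3cr1 exceeded it in 0 libraries and each C1q gene in 1, and Cx3cr1 exceeded it in 3 libraries in all, so passing depended on the groups where these genes were high. The 10 genes and the gene lists were also chosen with earlier results of these data known. For both reasons the counts and medians over genes below are descriptions. Each comparison was tested with edgeR's quasi-likelihood test over the 17440 genes that passed, with Benjamini-Hochberg adjusted p below 0.05 as the threshold, and differences are log2 fold changes ± SE of the fit.

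Which macrophage genes differ in cystic kidneys was asked by ADPKD against WT cells, both given vehicle. The 3 C1q genes, Lyz2, Cd68, Tyrobp and Adgre1 were higher in ADPKD cells, so that 7 of the 10 genes passed as higher and 1 as lower, where 28.8% and 27.6% of all genes tested passed in these directions. C1qa averaged 22.95 ± 2.01 CPM in ADPKD cells and 0.574 ± 0.107 CPM in WT cells (SD, n = 2 each), a difference of 5.32 ± 0.46 (edgeR adjusted p = 2.35e-06). C1qb and C1qc differed by 5.20 ± 0.52 (edgeR adjusted p = 2.27e-05) and 5.21 ± 0.49 (edgeR adjusted p = 4.51e-06). Lyz2 was higher by 4.36 ± 0.31 (edgeR adjusted p = 2.29e-06), Cd68 by 2.59 ± 0.21 (edgeR adjusted p = 1.66e-06), Tyrobp by 2.97 ± 0.46 (edgeR adjusted p = 0.000105) and Adgre1 by 3.22 ± 0.74 (edgeR adjusted p = 0.00355). Csf1r was lower in ADPKD cells (-1.15 ± 0.21, edgeR adjusted p = 0.000733). Mrc1 (-0.15 ± 0.20, edgeR adjusted p = 0.549) and Cx3cr1 (-0.86 ± 0.96, edgeR adjusted p = 0.473) did not pass. The median over the 10 genes was 3.09, against 0.05 over all genes tested. The same 7 genes passed as higher and Csf1r as lower in each of the 17 settings run.

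With 666-15 in ADPKD cells Mrc1 and Cx3cr1 passed as higher, Cd68 and Tyrobp as lower and the other 6 did not pass. Of all genes tested 22.3% passed as higher and 19.1% as lower, so 2 of 10 in each direction is near the share of genes in general. Mrc1 averaged 31.3 ± 2.24 CPM with 666-15 and 14.5 ± 3.28 CPM with vehicle, a difference of 1.11 ± 0.20 (edgeR adjusted p = 0.000876), and passed in every setting. Cx3cr1 differed by 3.14 ± 0.86 (edgeR adjusted p = 0.0106) on the small counts given above. It exceeded the filter in 2 ADPKD libraries given 666-15 and 0 given vehicle, so this p-value too is a description. Cd68 differed by -0.71 ± 0.20 (edgeR adjusted p = 0.0143) and Tyrobp by -1.22 ± 0.41 (edgeR adjusted p = 0.0296). The C1q genes did not pass: C1qa differed by -0.78 ± 0.33 (edgeR adjusted p = 0.0778), C1qb by -0.58 ± 0.37 (edgeR adjusted p = 0.243) and C1qc by -0.37 ± 0.34 (edgeR adjusted p = 0.412). Lyz2 (-0.53 ± 0.25, edgeR adjusted p = 0.126), Csf1r (0.35 ± 0.21, edgeR adjusted p = 0.214) and Adgre1 (1.16 ± 0.56, edgeR adjusted p = 0.12) did not pass.

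The calls in ADPKD cells other than Mrc1 depended on single libraries or settings. Cd68 did not pass without ADPKD vehicle replicate 2 (-0.36) or ADPKD 666-15 replicate 1 (-0.58). Cx3cr1 did not pass without ADPKD vehicle replicate 1 (2.93) or ADPKD 666-15 replicate 2 (2.77). Tyrobp was lost without ADPKD vehicle replicate 1 (-1.33), ADPKD vehicle replicate 2 (-1.08) or ADPKD 666-15 replicate 1 (-0.74). It was at -1.88 without ADPKD 666-15 replicate 2, and had an adjusted p of 0.0512 with DESeq2. In the other direction C1qa, Lyz2 and Adgre1 passed when WT 666-15 replicate 1 was left out (-0.77, -0.51 and 1.17) or when replicate 2 was (-0.77, -0.51 and 1.18), and when the 2 ADPKD groups were fitted alone (-0.82, -0.56 and 1.13). Without a filter on low counts they passed too (-0.76, -0.50 and 1.19), as did C1qb (-0.55) and Csf1r (0.38). Removing a trend with GC content from each library moved C1qa to -0.28, C1qb to -0.20, C1qc to 0.01, Cd68 to -0.54 (edgeR adjusted p = 0.0516) and Tyrobp to -0.98 (edgeR adjusted p = 0.0797), and brought Csf1r past the threshold at 0.58.

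**Figure D2:**
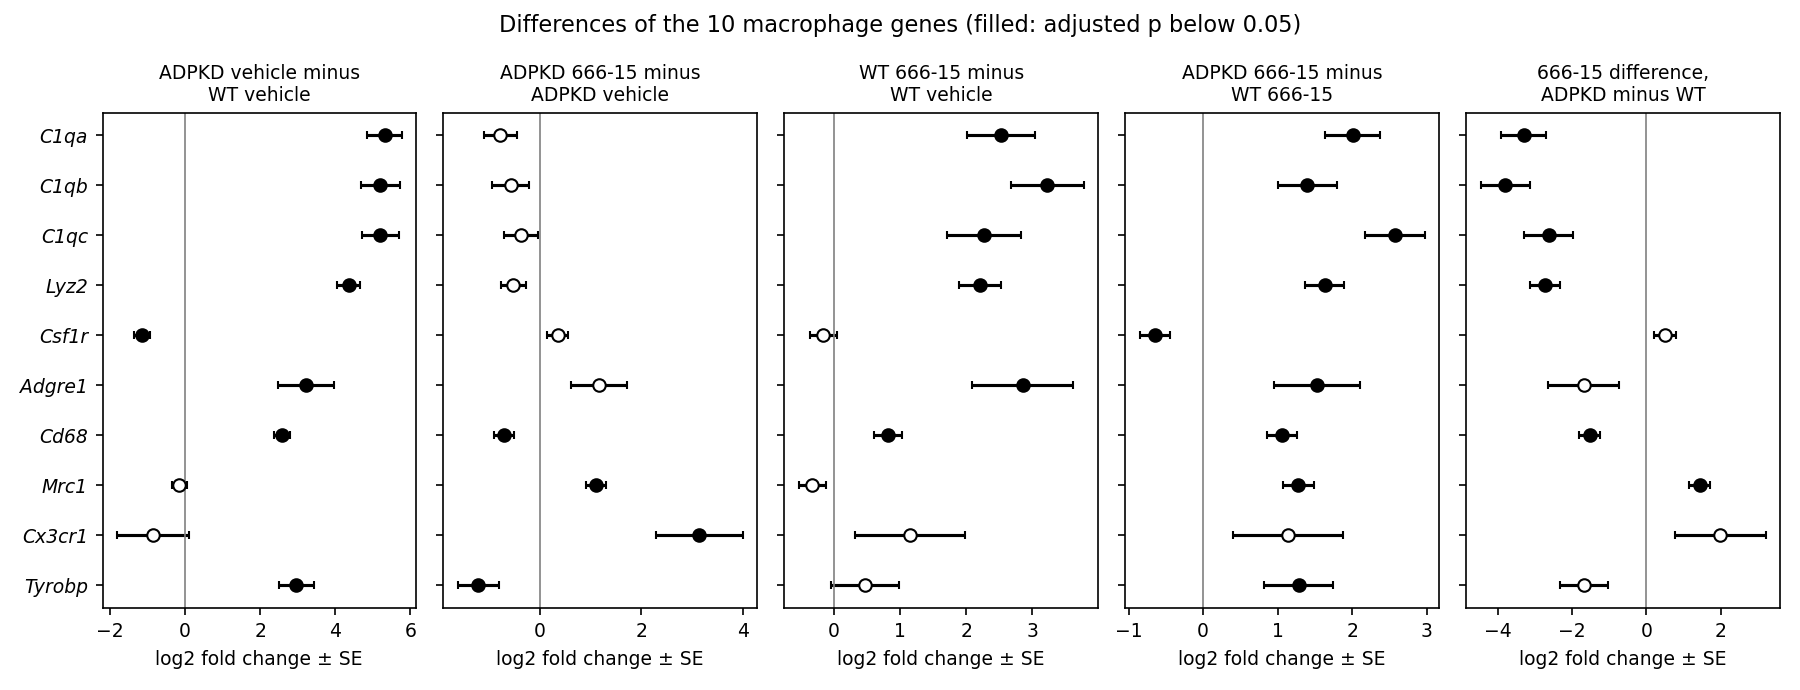
Log2 fold change ± SE of the 10 genes (rows) in the 5 comparisons (columns, each with its own scale), filled where the edgeR adjusted p was below 0.05. The C1q genes, Lyz2 and Cd68 lie right of 0 between the genotypes and with 666-15 in WT cells, and left of 0 in the last column, where Mrc1 lies right of 0 at 1.43.

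In WT cells C1qa, C1qb, C1qc, Lyz2, Adgre1 and Cd68 passed as higher with 666-15 and 0 of the 10 genes as lower, where 13.9% and 11.6% of all genes tested passed in these directions. C1qb averaged 6.05 ± 2.27 CPM with 666-15 and 0.616 ± 0.537 CPM with vehicle, a difference of 3.22 ± 0.55 (edgeR adjusted p = 0.00237). C1qa was higher by 2.53 ± 0.51 (edgeR adjusted p = 0.00406), C1qc by 2.26 ± 0.56 (edgeR adjusted p = 0.0128), Lyz2 by 2.21 ± 0.31 (edgeR adjusted p = 0.000829), Adgre1 by 2.85 ± 0.76 (edgeR adjusted p = 0.0193) and Cd68 by 0.82 ± 0.21 (edgeR adjusted p = 0.0158). Csf1r (-0.16 ± 0.20), Mrc1 (-0.32 ± 0.21), Cx3cr1 (1.15 ± 0.83) and Tyrobp (0.47 ± 0.51) did not pass. Without replicate 2 of the WT cells given 666-15, the library with Xist counts, C1qa (1.53), C1qb (2.77) and Lyz2 (1.77) passed, while C1qc (1.95), Adgre1 (1.28) and Cd68 (0.89) did not. Without WT vehicle replicate 1, C1qa (2.33), C1qc (1.52) and Adgre1 (3.28) were lost. Without WT vehicle replicate 2, Adgre1 (2.54) and Cd68 (0.62) were lost and C1qc was at 3.53. Without WT 666-15 replicate 1, Cd68 (0.73) was lost. C1qb and Lyz2 passed in every setting.

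With 666-15 in both genotypes, ADPKD cells still held more C1q RNA than WT cells, but by a smaller difference than with vehicle. As higher in ADPKD cells 8 genes passed and as lower 1, where 21.8% and 24.5% of all genes tested did. C1qa averaged 13.3 ± 2.37 CPM in ADPKD cells and 3.30 ± 2.32 CPM in WT cells, a difference of 2.01 ± 0.37 (edgeR adjusted p = 0.00119). C1qc was higher by 2.57 ± 0.40 (edgeR adjusted p = 0.00038), Lyz2 by 1.63 ± 0.27 (edgeR adjusted p = 0.000974), Cd68 by 1.06 ± 0.20 (edgeR adjusted p = 0.00155) and Mrc1 by 1.28 ± 0.21 (edgeR adjusted p = 0.000253). These 5 genes passed in every setting. C1qb (1.40 ± 0.40), Tyrobp (1.28 ± 0.46) and Adgre1 (1.53 ± 0.57) also passed as higher and Csf1r (-0.65 ± 0.21) as lower, with edgeR adjusted p of 0.0182, 0.038, 0.0495 and 0.0259. Without WT 666-15 replicate 2 the same 9 genes passed, with C1qa at 3.01 and Adgre1 at 3.11. Without WT 666-15 replicate 1, C1qb (1.06), Tyrobp (0.87), Adgre1 (0.80) and Csf1r (-0.44) were lost, and without ADPKD 666-15 replicate 2, C1qb (0.95), Tyrobp (0.61) and Adgre1 (1.30) were. Without ADPKD 666-15 replicate 1, Adgre1 (1.73) and Csf1r (-0.49) were lost, and Adgre1 was at 1.53 and not past the threshold without any 1 of the 4 vehicle libraries. DESeq2 lost C1qb (1.41) and Tyrobp (1.30), removal of the GC trend lost Csf1r (-0.39) and Adgre1 (1.53), and the 2 groups fitted alone lost Tyrobp (1.28) and Adgre1 (1.53).

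The interaction tests whether the difference with 666-15 was itself different in ADPKD and WT cells. It passed for 5 genes as lower in ADPKD cells. These were C1qa (-3.31 ± 0.61, edgeR adjusted p = 0.00267), C1qb (-3.81 ± 0.67, edgeR adjusted p = 0.00326), C1qc (-2.64 ± 0.66, edgeR adjusted p = 0.0137), Lyz2 (-2.73 ± 0.40, edgeR adjusted p = 0.00131) and Cd68 (-1.53 ± 0.29, edgeR adjusted p = 0.00315). It also passed for Mrc1 as higher (1.43 ± 0.29, edgeR adjusted p = 0.00317). Of all genes tested, 13.0% passed as lower and 13.6% as higher. Csf1r, Adgre1, Cx3cr1 and Tyrobp did not pass. C1qc was lost without WT 666-15 replicate 2 (-2.31, edgeR adjusted p = 0.0618) or WT vehicle replicate 1 (-1.88, edgeR adjusted p = 0.0518). The other 5 passed in every setting. The comparisons share libraries, so a high or low group enters more than 1 of them.

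Levels of different genes were set side by side per kilobase of the longest annotated transcript. On the scale of CPM per kilobase, Cd68 (60.9 to 93.1) and Lyz2 (53.7 to 56.2) were the highest of the 10 genes in ADPKD cells given vehicle, above C1qa (20.7 to 23.4), C1qb (19.1 to 24.9) and C1qc (12.4 to 18.3). Per kilobase of the union of exons C1qc was lower, at 7.71 to 11.4. A ratio to the sum of the C1q chains in the same library does not depend on library scaling. Relative to that sum, Lyz2 was at 0.956 to 0.991 in ADPKD cells given 666-15 and 0.844 to 1.03 in ADPKD cells given vehicle, so these groups overlapped. Cd68 was at 1.06 to 1.40 with 666-15 and 1.17 to 1.40 with vehicle in ADPKD cells, where the groups overlapped too. Mrc1 was at 0.128 to 0.178 in ADPKD cells given 666-15 and 0.0435 to 0.0470 in ADPKD cells given vehicle, 3.39 times as high by the group means. In ADPKD cells Adgre1 was at 0.0509 to 0.0585 with 666-15 and 0.0126 to 0.0186 with vehicle (3.50 times), and Csf1r at 0.182 to 0.224 with 666-15 and 0.0808 to 0.133 with vehicle (1.90 times). Cx3cr1 had the largest ratio of means, 13.8, on few counts. Tyrobp was at 0.0986 to 0.141 in ADPKD cells given 666-15 and 0.184 to 0.200 in ADPKD cells given vehicle, 0.622 times as high. These ratios are descriptions with 2 libraries in a group and were not tested, and Adgre1 and Csf1r did not pass in the test of their levels. In WT cells given vehicle the ratio of Csf1r to C1q was 7.33 to 10.3 and that of Mrc1 1.62 to 2.25, well above the ADPKD libraries.

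**Figure D3:**
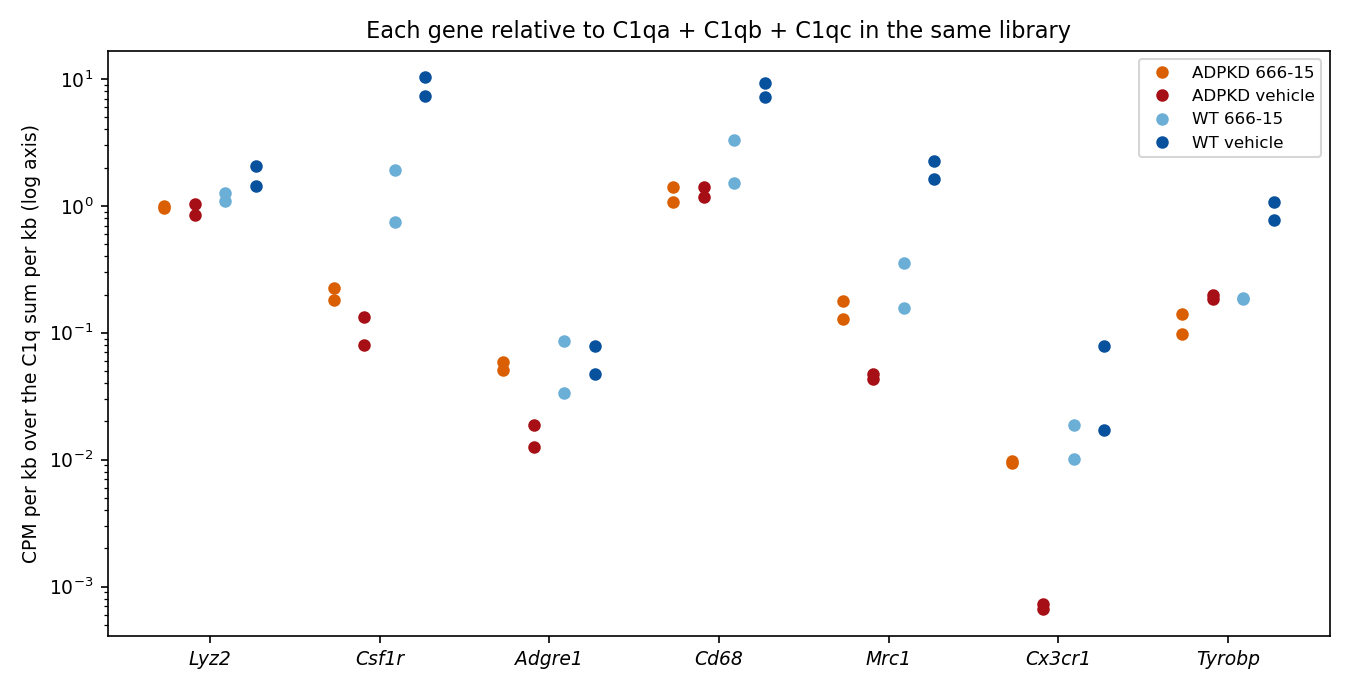
CPM per kilobase of each lineage gene divided by the summed CPM per kilobase of C1qa, C1qb and C1qc in the same library (log axis), 1 point per library. The points of Lyz2 and Cd68 overlap between the ADPKD groups, while those of Mrc1, Adgre1, Csf1r and Cx3cr1 lie higher with 666-15 and those of Tyrobp lower.

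Likeness to C1q was measured as the root mean square difference of centred log2 CPM from the mean of the 3 chains over the 8 libraries, where 0 is the same pattern. Among 14773 genes with a mean of at least 1 CPM the median was 2.04. Lyz2 was at 0.348, Adgre1 at 0.960, Cd68 at 1.11 and Tyrobp at 1.13, while Mrc1 was at 1.93 and Csf1r at 2.48, near or above that median. Cx3cr1 had a mean below 1 CPM. Outside the 10 genes the most alike were Fam167a (0.389), Ccr1 (0.452), Ly86 (0.466), Fcgr3 (0.487), Lcn2 (0.537), Neurl1a (0.544), Prss22 (0.556), Ctss (0.565), Cd163 (0.599) and Coro2a (0.618). Of these Ccr1 encodes a chemokine receptor of monocytes, Ly86 a partner of a Toll-like receptor relative, Fcgr3 an IgG receptor, Ctss cathepsin S of antigen-presenting cells and Cd163 the haptoglobin-haemoglobin scavenger receptor. Others are not macrophage markers of the lists used here, and some were abundant. In ADPKD cells given vehicle Fam167a was at 518.7 to 548.6 CPM, Prss22 at 211.4 to 213.8 CPM and Coro2a at 84.1 to 97.4 CPM. Likeness to C1q thus did not single out macrophage genes. Lcn2, a product of injured tubules and of neutrophils, was at 1726 to 2245 CPM in ADPKD cells given 666-15, 1644 to 1931 CPM in ADPKD cells given vehicle, 221.7 to 376.6 CPM in WT cells given 666-15 and 68.4 to 72.2 CPM in WT cells given vehicle. Like C1q it was higher in ADPKD than in WT cells and higher in WT cells given 666-15 than in those given vehicle, while its ADPKD groups overlapped.

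A wider list of 35 macrophage and monocyte markers, of which 32 were tested, moved between the genotypes in the same direction as C1q. It summed to 234.2 to 293.5 CPM in ADPKD cells given 666-15, 280.0 to 314.5 CPM in ADPKD cells given vehicle, 106.0 to 148.9 CPM in WT cells given 666-15 and 94.9 to 95.8 CPM in WT cells given vehicle. Single genes made up much of these sums. Cd14 alone was at 97.6 and 106.6 CPM in ADPKD cells given vehicle. In WT cells given vehicle Cd14 was at 39.8 and 40.7 CPM and Fcgr2b at 27.1 and 23.9 CPM. With vehicle, 26 of the 32 were higher in ADPKD cells and 1 was lower, with a median of 2.65. Of all genes tested 28.8% and 27.6% passed in these directions. Fcgr3 (5.14 ± 0.50, edgeR adjusted p = 1.7e-06), Itgam, an integrin of myeloid cells (3.94 ± 0.49, edgeR adjusted p = 1.53e-05), Gpnmb, a glycoprotein of lipid-loaded macrophages (2.86 ± 0.27, edgeR adjusted p = 1.35e-06), and Cd14, the lipopolysaccharide co-receptor (1.34 ± 0.13, edgeR adjusted p = 1.39e-06), were among the 26. The lower one was Fcgr2b, the inhibitory IgG receptor, with 4.10 and 4.89 CPM in ADPKD cells and 27.1 and 23.9 CPM in WT cells (-2.51 ± 0.25, edgeR adjusted p = 2.09e-06). With 666-15 in ADPKD cells 3 of the 32 were higher and 5 lower, with a median of 0.29, where 22.3% and 19.1% of all genes tested passed in these directions. Over the settings run these counts ranged from 0 to 6 and from 2 to 7, and the median from -0.12 to 0.37. Gpnmb was at 9.70 and 6.45 CPM with 666-15 and 18.4 and 22.8 CPM with vehicle (-1.35 ± 0.25, edgeR adjusted p = 0.000928). Where 13.9% and 11.6% of all genes tested passed as higher and lower with 666-15 in WT cells, 11 of the 32 were higher and 1 lower. This was 4 and 1 without WT 666-15 replicate 2, 3 and 1 without WT vehicle replicate 2, and 6 and 1 without WT vehicle replicate 1.

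Of 13 genes for ligands of CSF1R and transcription factors of macrophages, which other cells use too, 9 were higher and 4 lower in ADPKD cells given vehicle. Of all genes tested 28.8% and 27.6% passed in these directions. With 666-15 in ADPKD cells 0 were higher and 7 lower, where 22.3% and 19.1% of all genes tested passed. Csf1, the growth factor that CSF1R binds, was at 409.4 and 400.9 CPM in ADPKD cells given 666-15, 1075 and 971.8 CPM in ADPKD cells given vehicle, 651.9 and 638.2 CPM in WT cells given 666-15, and 200.1 and 238.7 CPM in WT cells given vehicle. It was thus higher in ADPKD than in WT cells with vehicle (2.22 ± 0.11, edgeR adjusted p = 2.76e-09), lower with 666-15 in ADPKD cells (-1.34 ± 0.10, edgeR adjusted p = 2.19e-06) and higher with it in WT cells (1.56 ± 0.11, edgeR adjusted p = 8.16e-07). With 666-15 in both genotypes Csf1 was lower in ADPKD than in WT cells (-0.67 ± 0.10, edgeR adjusted p = 0.000169), where the C1q genes were higher. The interaction of Csf1 was -2.89 ± 0.15 (edgeR adjusted p = 3.24e-07). Maf, a factor of resident macrophages and of other cells, was lower in ADPKD cells given vehicle (10.8 and 9.34 CPM) than in WT cells given vehicle (80.5 and 88.8 CPM; -3.07 ± 0.17, edgeR adjusted p = 9.45e-09). Runx1 was higher in ADPKD cells given vehicle by 2.49 ± 0.15 (edgeR adjusted p = 4.85e-08).

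Partners of the members were few and mixed. Of 17 TYROBP partners and kinases downstream of it 8 were tested, and with vehicle 5 were higher in ADPKD cells (3 to 6 over the settings run) and 0 lower. Of all genes tested 28.8% and 27.6% passed in these directions. Trem2, a receptor that signals through TYROBP, had 1.40 and 3.31 CPM in ADPKD cells and 0.0498 and 0.0591 CPM in WT cells (5.26 ± 0.81, edgeR adjusted p = 0.000104). These were 27 and 61 counts in ADPKD cells and 1 count in each WT library. Trem2 stayed below the filter of about 0.63 CPM in both WT groups. It was thus tested only through the ADPKD libraries, and its p-value is a description. Trem2 did not pass with 666-15 in ADPKD cells (-0.82 ± 0.54). There 2 of the 8 were higher and 1 lower, where 22.3% and 19.1% of all genes tested passed in these directions. The lower one was Inpp5d, a phosphatase that restrains this pathway (-1.93 ± 0.20, edgeR adjusted p = 1.45e-05). The higher ones were Blnk, an adaptor downstream of the kinase SYK (1.04 ± 0.16, edgeR adjusted p = 0.000497), and the phospholipase gene Plcg2 (0.43 ± 0.12, edgeR adjusted p = 0.0135), which did not pass without ADPKD vehicle replicate 1 (0.39) or ADPKD 666-15 replicate 2 (0.35). In ADPKD cells given vehicle Blnk was at 216.7 and 283.0 CPM and Plcg2 at 125.2 and 132.8 CPM. Tyrobp was at 6.23 and 7.33 CPM there, and these levels are not scaled to transcript length. Which cells held the RNA of Blnk and Plcg2 was not tested. Of 11 C1q partners, receptors and regulators, 3 were higher and 3 lower in ADPKD cells with vehicle, near the 28.8% and 27.6% of all genes tested. With 666-15 in ADPKD cells 0 were higher and 5 lower (1 to 6 lower over the settings run). Of all genes tested 22.3% passed as higher and 19.1% as lower there. Lrp1, a receptor for C1q-coated cells, had 62.7 and 52.1 CPM in ADPKD cells given 666-15 and 160.0 and 220.0 CPM in ADPKD cells given vehicle (-1.73 ± 0.20, edgeR adjusted p = 0.000148). Of 5 chemoattractants for CX3CR1 and CCR2, 2 were higher and 0 lower in ADPKD cells with vehicle, where 28.8% and 27.6% of all genes tested passed. Ccl7 was higher in ADPKD cells given vehicle (8.40 and 16.9 CPM) than in WT cells given vehicle (0.299 and 0.709 CPM; 4.67 ± 0.53, edgeR adjusted p = 4.63e-05). The other was Ccl2, at 4.24 ± 0.86 with all libraries and 3.68 without WT vehicle replicate 1. Cx3cl1, which encodes fractalkine, did not pass (0.01 ± 0.14, edgeR adjusted p = 0.951).

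Markers of other cells moved in the same comparisons, and their part in the results was not tested. Of 14 pan-leukocyte genes 12 were tested. Of these 4 were higher and 0 lower in ADPKD cells with vehicle, where 28.8% and 27.6% of all genes tested were. The list summed to 201.2 to 223.0 CPM in ADPKD cells given 666-15, 205.3 to 219.4 CPM in ADPKD cells given vehicle, 200.4 to 225.4 CPM in WT cells given 666-15 and 131.3 to 151.7 CPM in WT cells given vehicle. Most of this sum came from Arhgdib (99.3 and 90.8 CPM in ADPKD cells given vehicle) and Srgn (71.3 and 84.4 CPM there). Ptprc, the leukocyte antigen CD45, was at 3.79 and 5.05 CPM in ADPKD cells given vehicle and 3.74 and 4.14 CPM in WT cells given vehicle, and did not pass (0.17 ± 0.37, edgeR adjusted p = 0.722). In ADPKD cells given 666-15 Ptprc was at 7.09 and 12.5 CPM (1.15 ± 0.35 against vehicle, edgeR adjusted p = 0.0212), which did not pass without ADPKD 666-15 replicate 2 (0.69) or ADPKD vehicle replicate 1 (0.96). Neutrophil markers, which bear on Lyz2, summed to 9.37 to 9.91 CPM in ADPKD cells given 666-15, 6.23 to 12.1 CPM in ADPKD cells given vehicle, 7.69 to 8.67 CPM in WT cells given 666-15 and 3.04 to 3.84 CPM in WT cells given vehicle, and Ly6g was at 0 in both WT groups. The T and NK cell list stayed under 7 CPM in every library, with Cd3g, Cd2, Nkg7, Klrb1c and Gzma at 0 in both ADPKD groups and Cd3e and Cd3d at 0 in WT cells given vehicle. Dendritic cell markers summed to 31.6 CPM in both ADPKD libraries given 666-15, 20.4 to 30.0 CPM in ADPKD cells given vehicle, 25.6 to 28.4 CPM in WT cells given 666-15 and 18.4 to 24.0 CPM in WT cells given vehicle. Zbtb46 alone was at 26.75 and 24.37 CPM in ADPKD cells given 666-15.

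**Figure D4:**
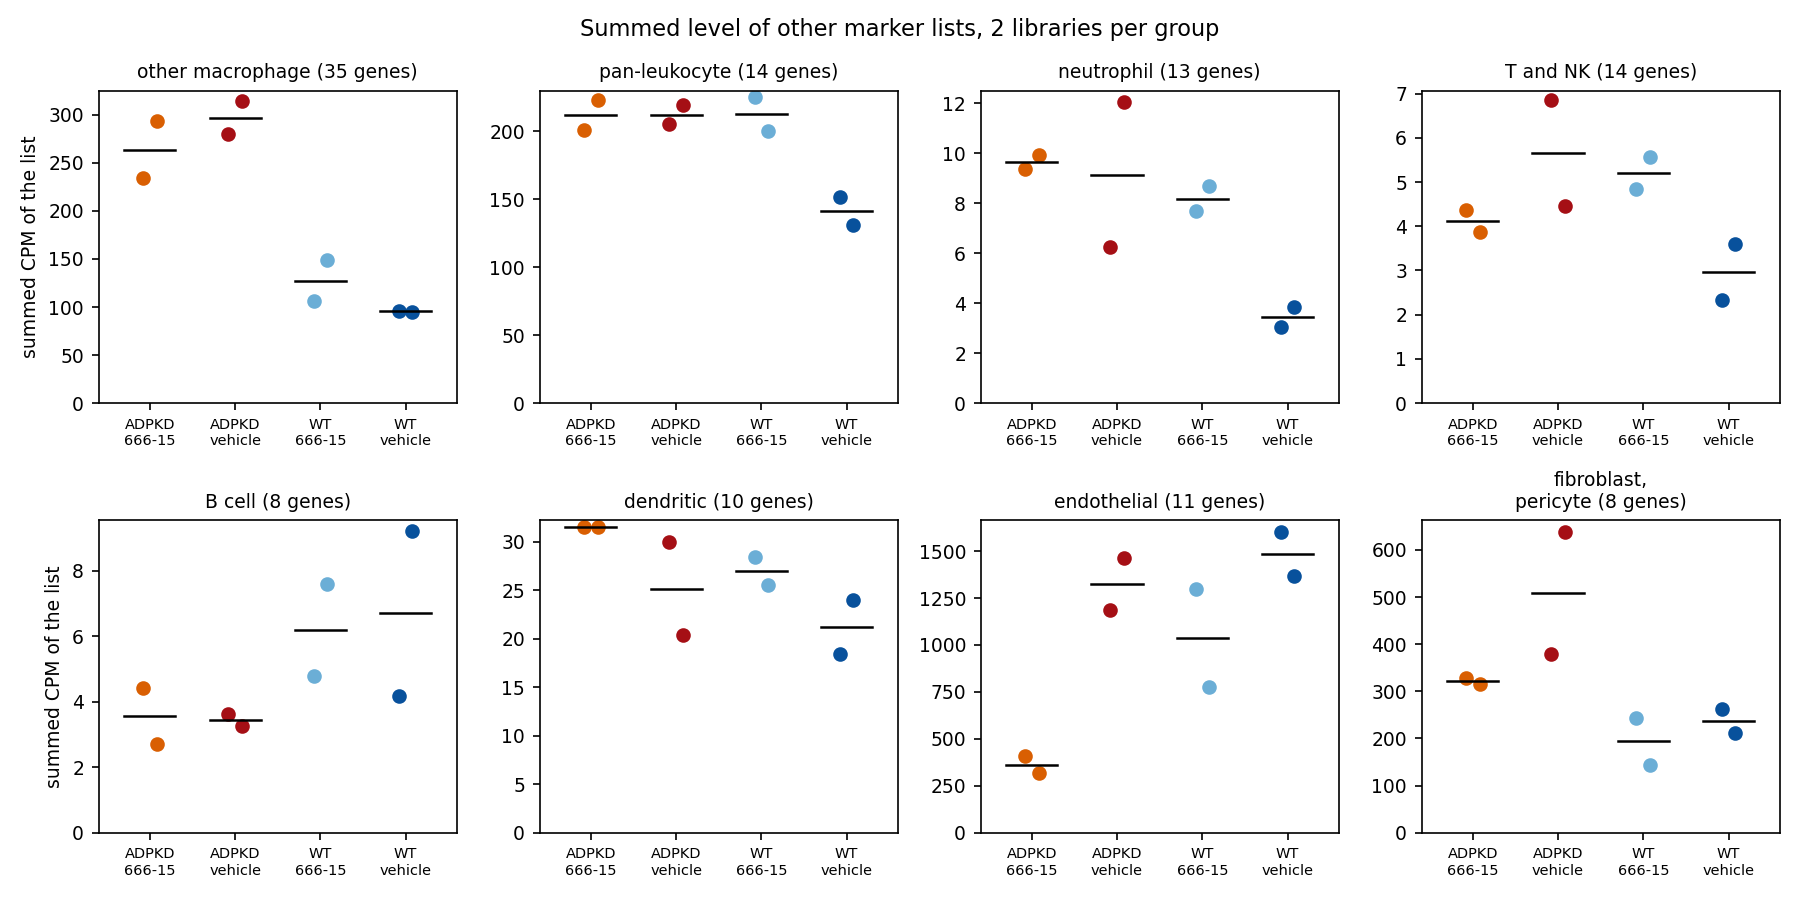
Summed CPM of 8 marker lists, 1 point per library and a bar at the group mean, each panel from 0. Macrophage markers are highest in the ADPKD groups, and endothelial markers sit at 318.9 to 406.2 CPM in ADPKD cells given 666-15 and at or above 775.9 CPM in every other library.

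Stromal lists differed as well. Fibroblast and pericyte markers summed to 315.3 to 328.1 CPM in ADPKD cells given 666-15, 379.7 to 638.3 CPM in ADPKD cells given vehicle, 144.8 to 244.0 CPM in WT cells given 666-15 and 210.6 to 263.4 CPM in WT cells given vehicle. With vehicle 6 of 8 were higher in ADPKD cells and 1 was lower, where 28.8% and 27.6% of all genes tested passed in these directions. Endothelial markers summed to 318.9 to 406.2 CPM in ADPKD cells given 666-15, 1186 to 1461 CPM in ADPKD cells given vehicle, 775.9 to 1299 CPM in WT cells given 666-15 and 1368 to 1600 CPM in WT cells given vehicle. All 11 endothelial markers were lower with 666-15 in ADPKD cells, where 19.1% of all genes tested passed as lower. Mrc1, which some endothelial cells of lymphatics and sinusoids also express, was higher there. The 5 lymphatic markers summed to 17.0 to 17.9 CPM in ADPKD cells given 666-15 and 35.3 to 48.5 CPM in ADPKD cells given vehicle. Proximal tubule markers moved against C1q. They summed to 224.2 to 268.7 CPM in ADPKD cells given 666-15, 154.7 to 200.8 CPM in ADPKD cells given vehicle, 3370 to 3572 CPM in WT cells given 666-15 and 8518 to 8697 CPM in WT cells given vehicle. With vehicle 8 of 8 were lower in ADPKD cells, against 27.6% of all genes tested. With 666-15, 6 were higher and 1 lower in ADPKD cells, against 22.3% and 19.1% of all genes tested. In WT cells 7 were lower with 666-15, against 11.6% of all genes tested. By the interaction 6 were higher in ADPKD cells, against 13.6%. Principal cell markers summed to 2284 to 2688 CPM in ADPKD cells given 666-15, 1846 to 2314 CPM in ADPKD cells given vehicle, 6681 to 6723 CPM in WT cells given 666-15 and 1250 to 1639 CPM in WT cells given vehicle. B cell markers were at 9.21 CPM or less in every library.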

How the data were processed

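The authors deposited 1 table of raw read counts per gene for 8 libraries. The tools named in the submitters' processing notes are HISAT2 2.1.0, featureCounts 1.6.0 and DESeq2, with the build mm10. The annotation, strand setting and treatment of multiply mapped reads are not given in the sources used here. Per the labels' protocols, RNA was extracted with TRIzol and libraries were made from polyA RNA. Columns of vehicle libraries were assigned by elimination.

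From the deposited counts, edgeR 4.0.16 in R 4.3.3 kept genes by filterByExpr (minimum count 10, minimum total 15), which left 17440. After TMM scaling a robust quasi-likelihood model of the 4 groups was fitted (4 residual degrees of freedom, median prior 8.69, common biological coefficient of variation 0.138). Tests were two-sided and adjusted by the Benjamini-Hochberg method over all genes tested in each comparison, at 0.05. The model was tested on simulated data. GENCODE M21 (GRCm38) matched 53569 of the symbols (96.9%) and gave positions, transcript lengths and GC content; promoters came from RefSeq GRCm38.p6. Proteins planned for display were not used here.

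The members and gene lists were chosen with earlier results of these data known. All 10 members are named; list genes could be named if among the 4 with the smallest p in ADPKD against WT with vehicle or in 666-15 against vehicle in ADPKD, and like genes by the smallest distance to C1q (mean of at least 1 CPM, prior count 2). The text names a subset, leaving out mainly list genes whose call was lost without 1 library. The alternatives were RLE scaling, no filter, 1 CPM in at least 4 libraries, no robust option, DESeq2 1.42.0, removal of a GC trend by lowess (span 0.3), the 2 groups alone, the replicate number as a block, exon union length, and each library left out. Libraries with the same replicate number were not paired.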

Additional observations from a re-analysis of the deposited data

Results flagged for a closer look

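The difference with 666-15 was itself tested between ADPKD and WT cells, and 6 of the 10 genes differed by that interaction (edgeR), where 13.0% of all genes tested passed as lower and 13.6% as higher. Relative to WT cells it was lower in ADPKD cells for C1qa (-3.31), C1qb (-3.81), C1qc (-2.64), Lyz2 (-2.73) and Cd68 (-1.53), and higher for Mrc1 (1.43), all as log2 differences. For the first 5 genes WT cells were higher with 666-15 than with vehicle (0.82 to 3.22), while ADPKD cells were at -0.78 to -0.37 with only Cd68 past the threshold. For Mrc1, ADPKD cells were higher with 666-15 (1.11), and WT cells were at -0.32 and did not pass. Without replicate 2 of the WT cells given 666-15, the library with Xist counts, C1qc did not pass (-2.31, edgeR adjusted p = 0.0618) and the other 5 did.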

How the results depend on the processing

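Leaving out 1 library at a time gave 2402 to 4707 genes past the threshold for 666-15 in WT cells (4448 with all libraries), 3037 to 5075 for the interaction (4636), and 4783 to 7817 for 666-15 in ADPKD cells (7224). Across the 10 genes, 353 results with a library left out kept direction and side of the threshold, 9 newly passed, 31 no longer did and 7 reversed; under the other settings the numbers were 359, 14, 9 and 1. The reversed differences had not passed: between genotypes with vehicle Mrc1 ranged from -0.43 to 0.10 and Cx3cr1 from -1.54 to 0.60, and with 666-15 in WT cells Csf1r ranged from -0.40 to 0.12, Cx3cr1 from -0.05 to 2.63 and Tyrobp from -0.12 to 0.87. C1qc with 666-15 in ADPKD cells was at 0.01 with the GC trend removed; the cause was not tested. Cx3cr1 gave no value with a filter of 1 CPM in 4 libraries. Depth limits C1q in WT cells given vehicle, where the chains summed to 34 and 29 counts.

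Replicate differences correlated at -0.0371 to 0.0806 between groups over 11199 genes, so the numbers do not pair libraries. With the replicate block, 9782 genes passed between genotypes with vehicle, 7198 for 666-15 in ADPKD cells, 4458 for 666-15 in WT cells, 8014 between genotypes with 666-15 and 4599 for the interaction. Of the 10 genes, C1qa (-0.80), Lyz2 (-0.56) and Adgre1 (1.22) newly passed with the block for 666-15 in ADPKD cells.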
